A study of Homo sapiens with 8 samples.

Results

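The enzymes that build surface glycans were followed through 10 genes: ST3GAL1, ST3GAL4, ST3GAL5, ST6GAL1, ST6GALNAC2, FUT2, FUT3, FUT8, GCNT3 and B3GNT3. Every probe set whose only annotated gene symbol was 1 of these 10 genes was taken, which gave 15 probe sets of the 22215 that are not controls, and 10 of the 11963 genes that such probe sets name. The study measured transcripts on 8 Affymetrix GeneChip arrays, each hybridised with RNA from established human cancer cells, and set cells given an anti-CD24 antibody or CD24-directed shRNA against cells without. Colo357, a pancreatic cancer line, gave 1 array after 72 h with the anti-CD24 monoclonal antibody SWA11 at a dilution of 1 to 40 and 1 array untreated. HT29, a colorectal cancer line, gave the same pair. HT29 clones with CD24-directed shRNA gave 3 arrays, of which 2 came from clones with 2 shRNA vectors, called here 2-vector clones 1 and 2, and 1 from a clone with 1 vector. An HT29 clone with a GFP-directed shRNA was the vector control, with 1 array. All 4 clones descend from HT29 and each array of a clone measures that single clone. Nothing in the labels says that arrays came from separate cultures, so each p-value measures only the spread between these arrays, which may be technical.

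CD24 is a small membrane protein that is carried on the cell surface under a dense coat of glycans. Sialyltransferases end glycan chains with sialic acid, and fucosyltransferases add fucose to the chain or to its base. The same chains are first started, branched and lengthened by other transferases, so the set of enzymes that a cell transcribes bounds which sialylated and fucosylated structures it can build, such as the Lewis antigens of the gut and pancreas. Transcript levels do not measure enzyme activity or the glycans themselves.

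The silenced gene itself was measured first, as the mean log2 intensity of its 6 probe sets. CD24 stood at 7.78 and 8.39 in the 2-vector clones and 8.40 in the 1-vector clone, against 11.56 in the GFP clone and 11.25 in untreated HT29, so the 3 CD24 shRNA clones were below both controls. The mean difference was -3.22, and the exact permutation test of these 3 arrays against 2, two-sided, gave p = 0.1, the smallest that its 10 splits allow. CD24 was 9.78 in antibody-treated and 9.65 in untreated Colo357, and 10.84 in antibody-treated HT29. Markers of the labelled tissues were mixed. Of 6 pancreatic duct markers measured, 5 were tested between the lines, and KRT7 and MUC1 were called higher and SOX9 and TSPAN8 lower in Colo357. Of 7 colon markers, 3 were tested, and KRT20 and LGALS4 were called lower in Colo357, while VIL1 was not called. The duct keratin KRT7 read 7503 and 5468 in Colo357, antibody first, and at most 193.3 on the 6 arrays of HT29 origin. TSPAN8, a tetraspanin listed here with the duct markers, read 185.6 and 556.1 in Colo357, against 4968 and 5924 in uncloned HT29, antibody first in each line. The colon keratin KRT20 read 13.7 and 6.7 in Colo357 and at least 1117 on those 6 arrays. The colon homeobox genes CDX1 and CDX2 read at most 27.0 and 24.3 on any array. The first 2-vector clone stood apart in RNA quality signs: its 3' to 5' ratio of ACTB was 1.77, the highest of the 8 arrays, against a lowest value of 1.06, and its 18S rRNA control read 434.8, against a lowest value of 14.7.

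The region just upstream of the gene start is shown for 3 enzymes with large differences between lines or clones, as 200 bases ending before the start given by RefSeq (GRCh38.p14), written 5' to 3' along the gene's own strand. Capitals mark the GC box, GGGCGG, on either strand. These are ST6GAL1 at chr3:186930326-186930525, plus strand, FUT3 at chr19:5851450-5851649, minus strand, and GCNT3 at chr15:59611583-59611782, plus strand.
ST6GAL1: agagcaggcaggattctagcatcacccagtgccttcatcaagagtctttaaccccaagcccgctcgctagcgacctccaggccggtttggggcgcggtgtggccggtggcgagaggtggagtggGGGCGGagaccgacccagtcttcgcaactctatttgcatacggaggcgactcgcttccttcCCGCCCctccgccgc
FUT3: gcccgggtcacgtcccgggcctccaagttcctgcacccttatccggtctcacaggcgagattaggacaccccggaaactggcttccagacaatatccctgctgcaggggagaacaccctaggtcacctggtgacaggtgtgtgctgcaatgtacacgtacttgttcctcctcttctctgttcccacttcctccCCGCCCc
GCNT3: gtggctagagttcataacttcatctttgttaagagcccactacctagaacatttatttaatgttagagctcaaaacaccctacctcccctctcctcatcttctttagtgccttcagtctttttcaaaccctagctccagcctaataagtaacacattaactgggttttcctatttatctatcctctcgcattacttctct
The windows differed in base composition. ST6GAL1 had 17 CpG dinucleotides and 64.0% G or C, FUT3 had 8 and 59.5%, and GCNT3 had 1 and 39.5%, beside a median of 9 CpG over 35116 RefSeq promoter windows of the same length. A GC box stood in 2 places in ST6GAL1 and in 1 place in FUT3, and no match was found in GCNT3. It was found in 40.1% of all windows. The letters CCAAT (28.0% of windows), TATAAA (8.59%), TGANTCA (5.38%), TTTATNG (7.01%), CAAAGTCCA (0.282%) and the HNF1 motif (0.0057%), each searched on both strands, had no match in these 3 windows. A match is a run of letters and not a measured binding site.

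**Figure D1:**
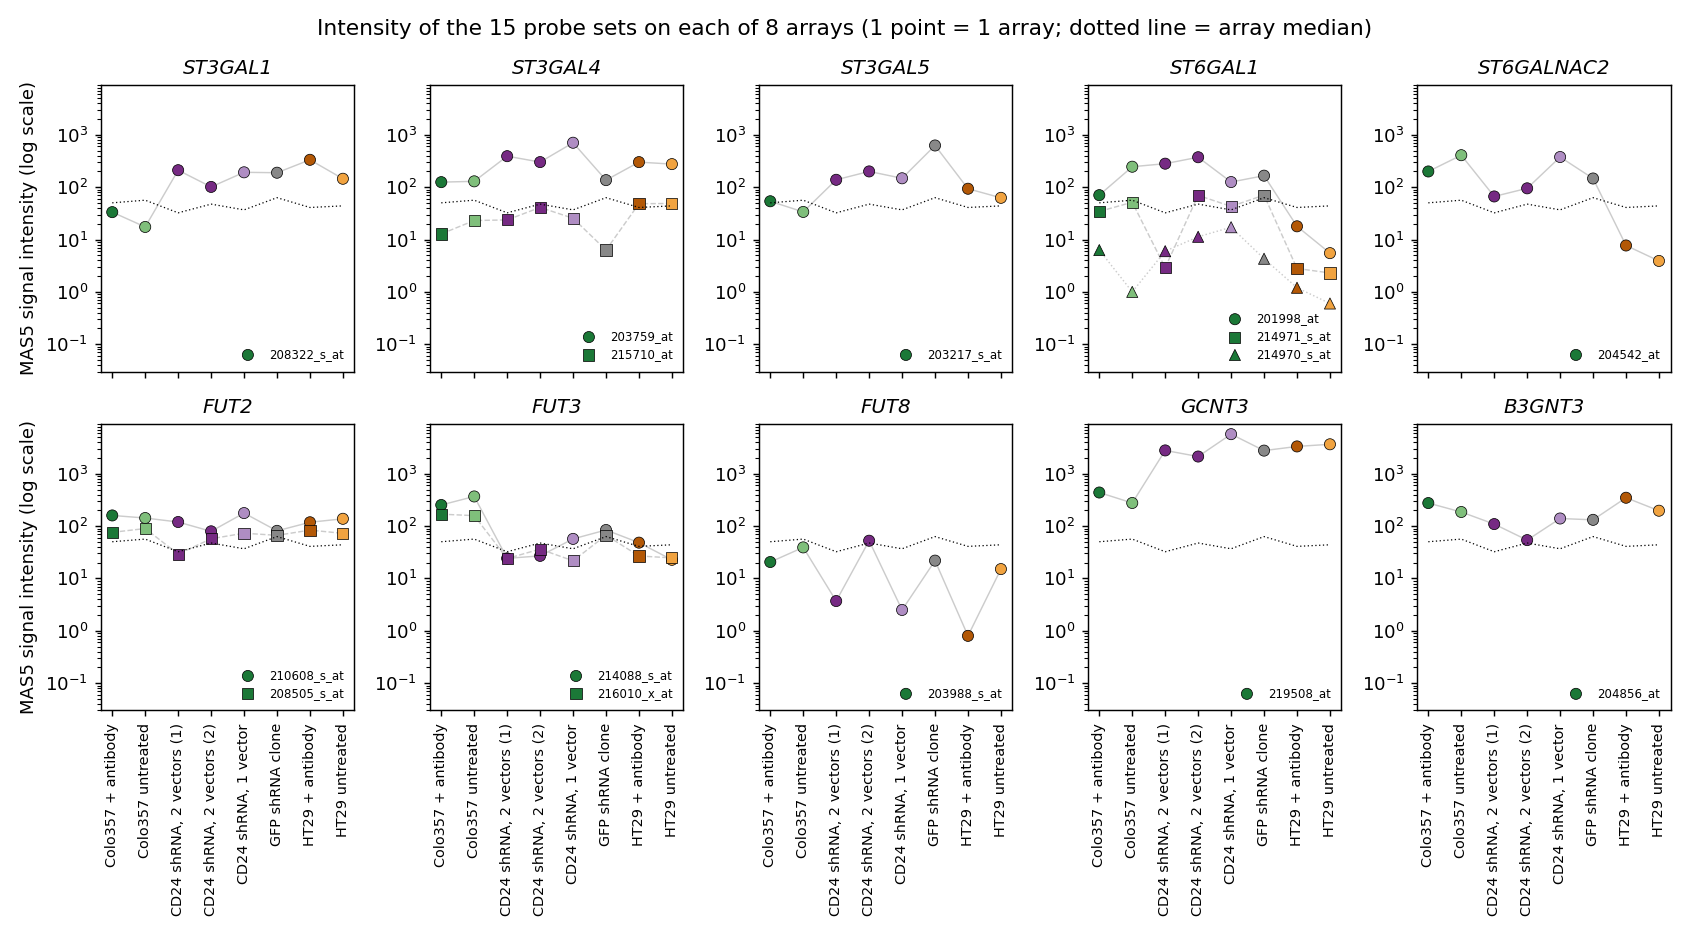
Deposited intensity (log axis) of each probe set of the 10 enzyme genes on each of the 8 arrays, 1 panel a gene, points joined within a probe set, with Colo357 at the left, the 4 HT29 clones next and HT29 at the right; the dotted line is each array's median. ST6GAL1, on its brightest probe set, and ST6GALNAC2 are lowest on the 2 HT29 arrays, FUT3 is highest on the 2 Colo357 arrays and GCNT3 is lowest there.

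Colo357 differed from HT29 in most of the sialyl- and fucosyltransferases that could be tested, in both directions. Colo357 had more ST6GALNAC2 and FUT3 and less ST3GAL1, ST3GAL4 and GCNT3. The comparison set the 2 Colo357 arrays against the 2 uncloned HT29 arrays with the antibody as a term, in limma on log2(intensity + 10). A probe set was tested where its mean was above the median of all probe sets, which corresponds to an intensity of 47.3 here, and was called at a Benjamini-Hochberg adjusted p under 0.05 over the 11107 probe sets tested. Of the 15 member probe sets, 10 were tested and 6, of 5 genes, were called, 3 higher and 3 lower, where 23.1% of all probe sets were called, 12.3% higher and 10.8% lower. Several of these 10 reached the filter only through the line in which they were high, so the count is a description. With all probe sets tested, 7 of the 15 were called, 5 higher and 2 lower. This count is also a description, as it has no share of all probe sets beside it. With 1 residual degree of freedom, the test rests on a spread estimated across all probe sets.

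ST3GAL1, which caps the galactose of core 1 O-glycans with sialic acid, had an intensity of 33.4 in antibody-treated and 17.4 in untreated Colo357, against 333.9 in antibody-treated and 145.0 in untreated HT29. Both Colo357 arrays lay below every HT29 and clone array, of which the lowest was 101.3 in 2-vector clone 2. The log2 difference was -2.74 ± 0.34 (SE; limma adjusted p = 8.95e-07). Colo357 was under the filter level, and with all probe sets tested the limma adjusted p was 0.0033. ST3GAL4, which sialylates the galactose of longer chains on the way to sialyl Lewis x, read 125.0 in antibody-treated and 129.5 in untreated Colo357 on its brighter probe set, against 301.7 in antibody-treated and 276.3 in untreated HT29. This difference was smaller, at -1.12 ± 0.34 (SE; limma adjusted p = 0.0183). It was not called when all probe sets were tested without the filter (adjusted p = 0.0852) or when all 8 arrays gave the spread (adjusted p = 0.171). ST3GAL5, which makes the ganglioside GM3 and so acts on a lipid, had 53.9 and 33.7 in Colo357 against 93.5 and 62.7 in HT29, with the antibody-treated array first in each line. Its log2 difference of -0.71 ± 0.34 (SE) missed the threshold (limma adjusted p = 0.139).

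ST6GALNAC2, which places sialic acid on the first sugar of O-glycans, was near the bottom of the range in HT29 and well above it in Colo357. It read 199.9 in antibody-treated and 409.0 in untreated Colo357, against 7.7 in antibody-treated and 3.9 in untreated HT29. The HT29 values lay under the lower quartile of all probe sets on all arrays, 10.1, so the gene passed the filter through Colo357 alone. The log2 difference of 4.24 ± 0.37 (SE; limma adjusted p = 1.43e-09) therefore has little meaning as an exact size, and was 4.91 on the untreated arrays alone. With all probe sets tested, and so without the filter, the limma adjusted p was 0.00115. ST6GAL1, the main enzyme that sialylates the galactose of N-glycans in the other linkage, read 70.5 in antibody-treated and 246.3 in untreated Colo357 on its brightest probe set, against 17.9 in antibody-treated and 5.5 in untreated HT29. Both Colo357 values were above both HT29 values, but the mean of the 4 arrays was below the filter. The log2 difference was 2.79, and the unfiltered test gave limma adjusted p = 0.0258. Its 2 dimmer probe sets differed by 2.06 and 0.30 in the same direction.

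FUT3, the Lewis enzyme that adds fucose to make Lewis a, Lewis b and their sialylated forms, had 253.3 in antibody-treated and 368.7 in untreated Colo357, against 48.3 in antibody-treated and 22.7 in untreated HT29. The other FUT3 probe set read 169.1 and 158.6 in Colo357, against 26.9 and 24.7 in HT29. The log2 differences were 2.85 ± 0.37 (SE; limma adjusted p = 1.33e-06) and 2.28 ± 0.34 (SE; limma adjusted p = 1.28e-05), and Colo357 was above all 6 HT29 and clone arrays on both probe sets. The mean HT29 level of each probe set lay under the filter, so FUT3 entered the test through Colo357. With all probe sets tested, the first had limma adjusted p = 0.00623. FUT3 lies on chromosome 19 beside FUT6 and FUT5, which are closely related genes, so probes of 1 gene may bind transcripts of another. Probe sequences were not examined. All 5 probe sets of FUT6, a fucosyltransferase that makes Lewis x structures, were also higher on both Colo357 arrays than on both HT29 arrays. The brightest read 300.6 in antibody-treated and 300.4 in untreated Colo357, against 110.1 in antibody-treated and 75.6 in untreated HT29, a log2 difference of 1.61 ± 0.34 (SE; limma adjusted p = 0.00104). The split of this signal between FUT3 and FUT6 was not tested.

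**Figure D2:**
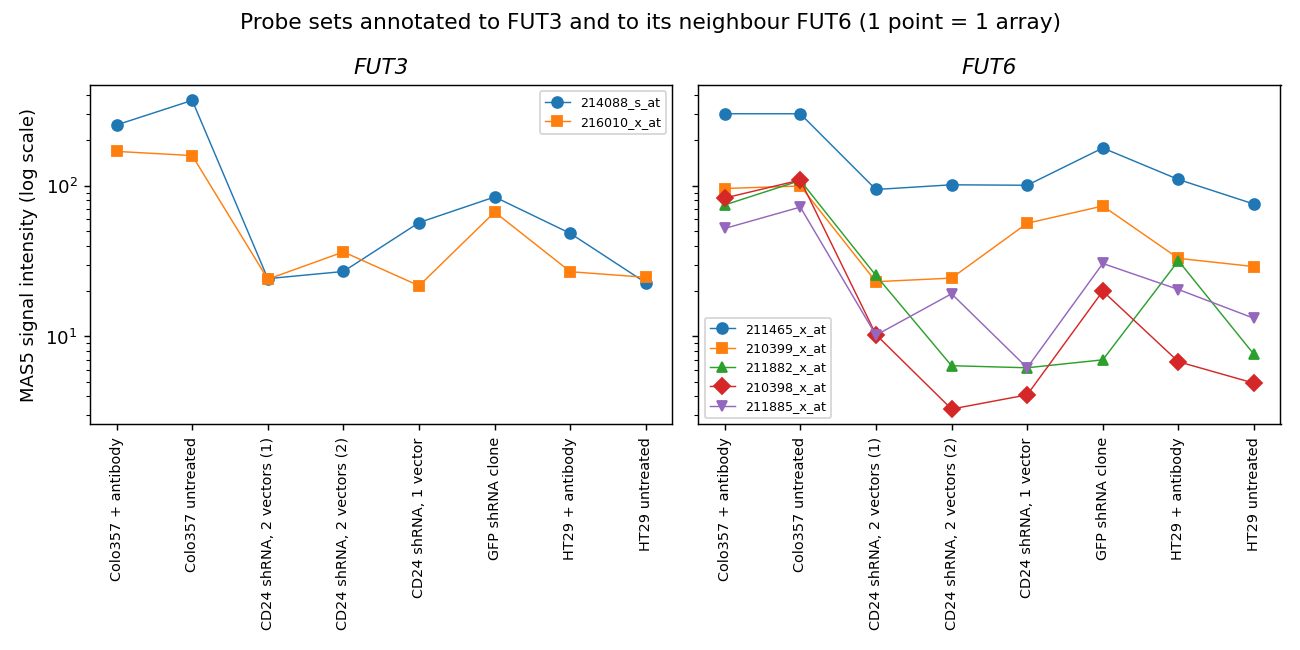
Deposited intensity (log axis) of the 2 FUT3 and 5 FUT6 probe sets on each of the 8 arrays, points joined within a probe set, with Colo357 at the left, the clones next and HT29 at the right. Every probe set of both genes is higher on the 2 Colo357 arrays than on the 2 HT29 arrays.

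Of the 2 remaining member fucosyltransferases, FUT2 did not pass the test between the lines and FUT8 was below the filter. FUT2, which makes the H antigen in secretions, read 159.9 in antibody-treated and 142.8 in untreated Colo357, against 118.4 in antibody-treated and 138.0 in untreated HT29. Its log2 difference was 0.23 (limma adjusted p = 0.700), and its second probe set gave 0.07 (limma adjusted p = 0.911). Of the 10 genes, each on its brightest probe set, FUT2 had the narrowest range over the 8 arrays, 1.07 on the log2 scale. FUT8, which adds the core fucose of N-glycans, was dim, with 20.6 and 39.2 in Colo357 and 0.8 and 15.1 in HT29, antibody first.

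GCNT3, the mucosal enzyme that starts core 2 and core 4 branches on O-glycans, was lower in Colo357. It read 438.6 in antibody-treated and 276.7 in untreated Colo357, against 3330 in antibody-treated and 3660 in untreated HT29. The 4 clones ranged between 2136 and 5715, so Colo357 was below all 6 arrays of HT29 origin. The log2 difference was -3.29 ± 0.35 (SE; limma adjusted p = 5.55e-08). B3GNT3, which lengthens core 1 chains with N-acetylglucosamine, read 275.8 and 186.1 in Colo357, against 348.4 and 196.8 in HT29, antibody first. The groups overlapped, with a log2 difference of -0.20 (limma adjusted p = 0.732). The untreated arrays alone, 1 a line and without a test, gave 4.05 for ST6GAL1, 3.53 for FUT3, -3.68 for GCNT3 and -2.50 for ST3GAL1.

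**Figure D3:**
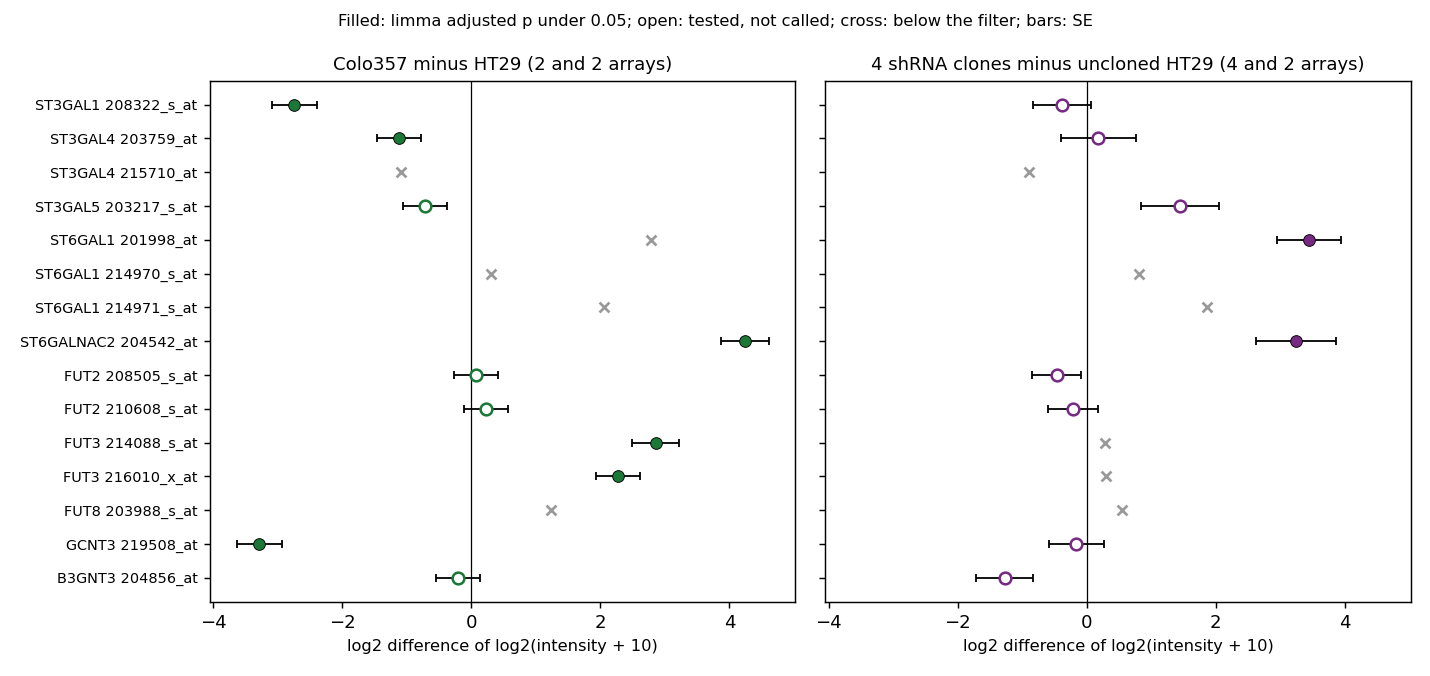
Log2 difference of each member probe set for Colo357 minus HT29 and for the 4 shRNA clones minus uncloned HT29, with SE bars where limma tested the probe set, and filled marks for calls. ST6GALNAC2 is higher than HT29 in both, at 4.24 and 3.25, while ST3GAL1 and GCNT3 are at -2.74 and -3.29 in Colo357 and at -0.38 and -0.16 in the clones.

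ST6GAL1, on its brightest probe set, and ST6GALNAC2 read higher in each of the 4 HT29 clones, whatever their shRNA, than on either array of uncloned HT29. This comparison set the 4 clones against antibody-treated and untreated HT29 and shares the HT29 arrays with the comparison of the lines. ST6GAL1 read 281.6, 374.0, 125.5 and 166.1 in 2-vector clone 1, 2-vector clone 2, the 1-vector clone and the GFP clone, against 17.9 in antibody-treated and 5.5 in untreated HT29. Every clone was thus above both HT29 arrays, and within the range of Colo357 or above it. The log2 difference was 3.45 ± 0.50 (SE; limma adjusted p = 0.0203), and the exact permutation test of the single gene, two-sided, gave p = 0.0667, the smallest that 15 splits allow. The other ST6GAL1 probe sets, both below the filter, also had higher means in the clones, by 1.87 and 0.81. On the first of these, 2-vector clone 1 read 2.9, close to 2.8 in antibody-treated and 2.3 in untreated HT29. The other clones read 43.0 to 70.6 on it.

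ST6GALNAC2 read 66.6, 95.2, 377.4 and 146.7 in the clones in the same order, against 7.7 and 3.9 in HT29. The clones were again all above both HT29 arrays, with the 1-vector clone the highest. The log2 difference was 3.25 ± 0.62 (SE; limma adjusted p = 0.0484; exact permutation p = 0.0667). Both genes passed the filter through the clones alone, since uncloned HT29 was near the bottom of the range, so they had to differ once tested and their count supports nothing. They were the 2 calls among the 9 member probe sets tested, where 2.05% of all probe sets were called and 1.56% were called higher. With all probe sets tested, the limma adjusted p was 0.0299 for ST6GAL1 and 0.0671 for ST6GALNAC2, so only ST6GAL1 was called without the filter. Leaving out 1 array at a time ended either call in several cases. The adjusted p of ST6GAL1 was 0.0656 without 2-vector clone 2, 0.123 without antibody-treated HT29 and 0.159 without untreated HT29. Both calls held without 2-vector clone 1, whose RNA signs stood apart. The adjusted p of ST6GALNAC2 was 0.0504 without the GFP clone, 0.103 without 2-vector clone 2, 0.261 without antibody-treated and 0.255 without untreated HT29, and without the 1-vector clone it was below the filter. It was 0.101 with 50 added in place of 10. The size also depended on the added constant, with log2 differences of 4.29 and 2.14 for ST6GAL1 and 4.40 and 1.80 for ST6GALNAC2 when 1 or 50 was added.

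Of 7 colon markers, 3 were tested in the clones against HT29 and 0 were called. LGALS4, a galactose-binding lectin of intestinal epithelium, read between 32.5 and 682.2 in the clones, against 5626 in antibody-treated and 4582 in untreated HT29, and VIL1, the villus actin-bundling protein, read at most 248.5 in the clones, against 1408 and 439.3. KRT20 read between 2761 and 4800 in the clones, against 4016 and 1117. The limma adjusted p was 0.0887 for LGALS4, 0.104 for VIL1 and 0.388 for KRT20, and their part in the sialyltransferase levels was not tested. ST3GAL5 was above HT29 in every clone, at 138.6, 200.3, 148.1 and 627.2 in the clones as ordered above, against 93.5 in antibody-treated and 62.7 in untreated HT29. The GFP clone stood far above the others, and the log2 difference of 1.45 ± 0.61 (SE) missed the threshold (limma adjusted p = 0.242). B3GNT3 was below HT29 in every clone, at 109.3, 54.0, 139.8 and 131.8, against 348.4 and 196.8. Its log2 difference was -1.27 ± 0.44 (SE; limma adjusted p = 0.178; exact permutation p = 0.0667, the same as for ST6GAL1 and ST6GALNAC2). Groups that do not overlap were found for 32.4% of all probe sets in this comparison. ST3GAL1, ST3GAL4, FUT2 and GCNT3 had log2 differences between -0.46 and 0.18 on the probe sets tested, none called. Below the filter, the dimmer ST3GAL4 probe set had -0.89, with every clone below both HT29 arrays. FUT3, with 0.28 and 0.31, and FUT8, with 0.55, were also below the filter, with overlapping groups.

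Against parental HT29 and the GFP clone together, the 3 CD24 shRNA clones showed no called change in any of the 8 enzymes tested. FUT3 and FUT8 were below the filter and not tested, with log2 differences of -0.34 and -0.49 for FUT3 and -0.36 for FUT8. Of the 9 member probe sets tested, 0 were called, as were 0% of all probe sets, and 0 had an unadjusted limma p under 0.05, where 19.1% of all probe sets did. Among the 9, the brighter ST3GAL4 probe set was the one whose groups did not overlap. It read 391.7 and 302.1 in the 2-vector clones and 707.5 in the 1-vector clone, against 136.6 in the GFP clone and 276.3 in untreated HT29. Groups that do not overlap made up 39.7% of all probe sets. The log2 difference of this probe set was 1.13 ± 0.50 (SE; limma adjusted p = 0.270; exact permutation p = 0.2). The dimmer ST3GAL4 probe set, below the filter, overlapped, with a log2 difference of 0.35. It read 23.7 and 41.1 in the 2-vector clones and 25.5 in the 1-vector clone, against 6.3 in the GFP clone and 48.9 in untreated HT29. The 6 probe sets of CD24 itself also missed the threshold in this comparison, with limma adjusted p between 0.220 and 0.236. It shares 5 arrays with the comparison of the 4 clones.

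The controls of that comparison disagreed most for ST6GAL1, ST6GALNAC2 and ST3GAL5. ST6GAL1 had a log2 difference of 2.24 ± 0.97 (SE; limma adjusted p = 0.265), made of 0.49 against the GFP clone alone and 4.0 against untreated HT29 alone. ST6GALNAC2 had 1.65 ± 1.07 (SE; limma adjusted p = 0.407), made of -0.10 and 3.39 against the same controls. ST3GAL5 had -0.34 ± 0.82 (SE; limma adjusted p = 0.832), made of -1.90 against the GFP clone and 1.23 against untreated HT29. The direction for ST6GALNAC2 and ST3GAL5 thus depended on which control was used. ST3GAL1, FUT2 and GCNT3 had log2 differences between -0.40 and 0.16 and B3GNT3 had -0.71 ± 0.47 (SE; limma adjusted p = 0.410), with overlapping groups. On their brightest probe sets, the signs for ST3GAL1, FUT2 and GCNT3 also depended on the control.

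The GFP clone itself, 1 array against 1 untreated HT29 array and so without a test, differed most from its parent in 3 sialyltransferases. ST3GAL5 read 627.2 in the GFP clone against 62.7 in HT29, a log2 difference of 3.13. It was the only 1 of the 7 member probe sets above the filter to pass 2-fold, where 20.1% of all probe sets did. Below the filter, ST6GALNAC2 differed by 3.49 and the ST6GAL1 probe sets by 3.51 and 2.71 for the brighter pair. ST3GAL4 differed by -1.85 on its dimmer probe set, also below the filter, and by -0.97 on its brighter. FUT3 read 84.3 against 22.7 and 66.9 against 24.7 on its 2 probe sets, log2 differences of 1.53 and 1.15.

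Clones with 2 CD24 shRNA vectors differed from the clone with 1 vector in several enzymes, again without a test, as the 1-vector clone had 1 array. With 2-fold and a 1-vector value outside both 2-vector values as the rule, 4 of the 9 member probe sets above the filter passed, where 9.07% of all probe sets did. ST6GAL1, on its brightest probe set, was higher with 2 vectors, at 281.6 and 374.0 against 125.5 with 1 vector, by 1.3 on the log2 scale. Its 2 dimmer probe sets, both below the filter, had lower means with 2 vectors, with differences of -0.72 and -0.56. ST6GALNAC2, at 66.6 and 95.2 against 377.4, had a log2 difference of -2.11. GCNT3, at 2794 and 2136 against 5715, had -1.22, and ST3GAL4, at 391.7 and 302.1 against 707.5 on its brighter probe set, had -1.02. The dimmer ST3GAL4 probe set, below the filter, had 0.23. On the probe sets that passed, ST6GALNAC2, GCNT3 and ST3GAL4 were highest in the 1-vector clone among the 4 clones. The same single array gives all 4 differences that passed.

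**Figure D4:**
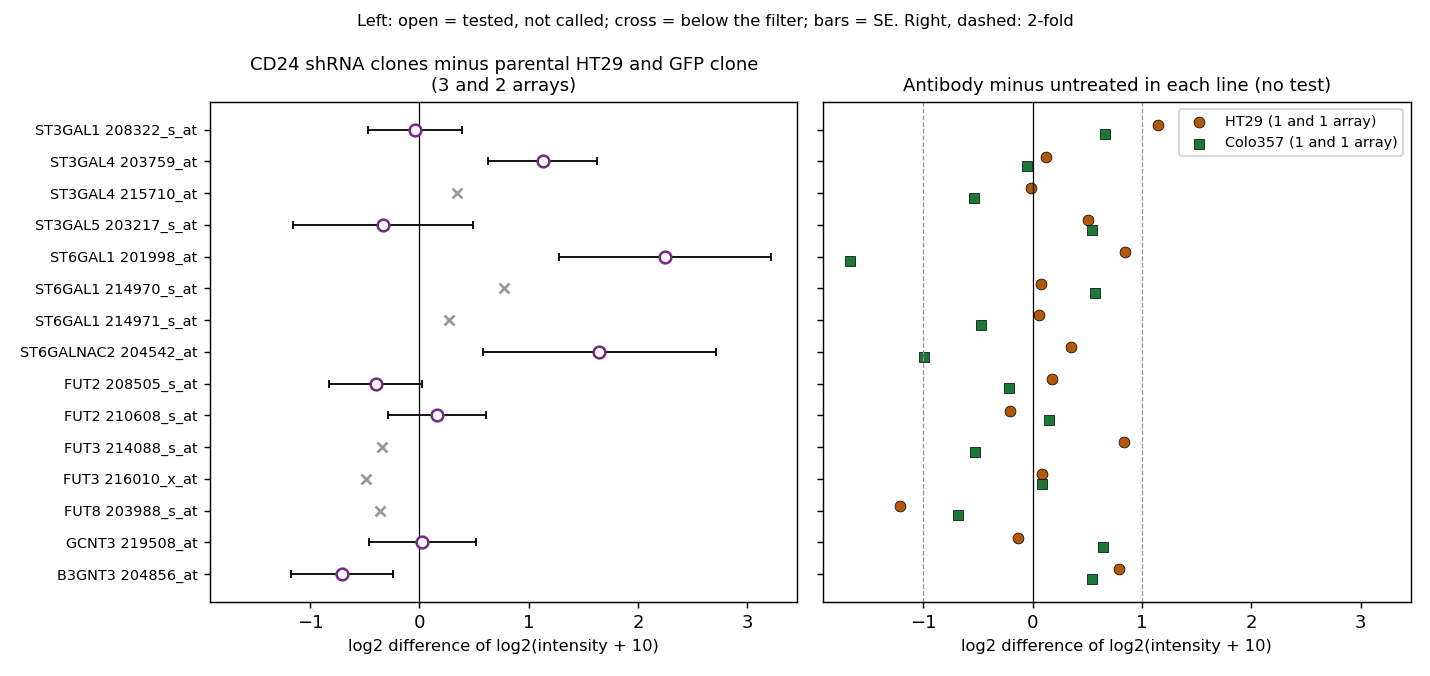
Log2 difference of each member probe set for the 3 CD24 shRNA clones minus parental HT29 and the GFP clone, with SE bars where limma tested the probe set, and for the antibody minus untreated in HT29 and in Colo357, 1 array each. No member was called in the tested comparison. ST6GAL1, on its brightest probe set, has opposite signs in the lines, 0.85 in HT29 and -1.67 in Colo357.

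Antibody treatment changed no tested member past the threshold over the 2 lines. The comparison took the antibody-treated against the untreated array of each line with the line as a block, in the same limma fit as the comparison of the lines. Of 10 member probe sets tested, 0 were called, where 10.3% of all probe sets were called. ST3GAL1 came closest, with 333.9 in antibody-treated against 145.0 in untreated HT29 and 33.4 in antibody-treated against 17.4 in untreated Colo357. It was higher with the antibody in both lines, by 0.91 ± 0.34 on the log2 scale (SE; limma adjusted p = 0.0934). B3GNT3 was also higher in both, with 348.4 against 196.8 in HT29 and 275.8 against 186.1 in Colo357, by 0.67 ± 0.34 (SE; limma adjusted p = 0.221). ST3GAL5 differed by 0.53 (limma adjusted p = 0.346), GCNT3 by 0.26, ST6GALNAC2 by -0.32 and FUT3 by 0.15 and 0.09. ST6GAL1 and FUT8 were below the filter and not tested over both lines. Their log2 differences were -0.41, -0.21 and 0.32 on the ST6GAL1 probe sets, brightest first, and -0.95 for FUT8.

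Within each line, with 1 array a group and no test, 1 member above the filter passed 2-fold in each. In HT29 it was ST3GAL1, at 1.15 on the log2 scale, among 8 member probe sets above the filter, where 12.3% of all probe sets passed. In Colo357 it was ST6GAL1 on its brightest probe set, at 70.5 with the antibody against 246.3 without, a log2 difference of -1.67. This was among 9 above the filter, where 23.5% of all probe sets passed. ST6GALNAC2 in Colo357, at 199.9 against 409.0, had -0.997 and stood just under 2-fold. Below the filter, FUT8 read 0.8 with the antibody against 15.1 without in HT29, both dim, a log2 difference of -1.22. In Colo357 it had -0.69. As a description, the median log2 difference of the member probe sets above the filter was -0.06 between the lines, -0.16 for the 4 clones, 0.03 for the CD24 shRNA clones and 0.12 for the antibody over both lines. The medians of all probe sets above the filter in these comparisons were -0.04, -0.0024, -0.05 and -0.05, in that order.

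Other genes of the same pathways, taken from lists of other sialyl- and fucosyltransferases, O- and N-glycan enzymes, chain-lengthening enzymes, sugar donors and glycosidases, gave 68 measured genes, each read on its brightest probe set. Between the lines, 17 of 45 genes tested were called, 5 higher and 12 lower, beside 23.1% of all probe sets. By list, 1 of 1 other sialyltransferase tested was lower in Colo357, and of 5 other fucosyltransferases 2 were higher and 1 lower. Of 11 O-glycan initiation and core genes 1 was higher and 5 were lower, of 8 chain-lengthening genes 1 and 1, of 9 N-glycan genes 1 and 1, of 9 donor genes 0 and 3, and of 2 glycosidases 0 and 0. The smaller of these counts, such as 2 of 8 and 2 of 9, were near the share of all probe sets. GMDS, which makes the fucose donor, had 15 in antibody-treated and 175.0 in untreated Colo357, against 336.8 in antibody-treated and 886.9 in untreated HT29, a log2 difference of -3.04 (limma adjusted p = 6.64e-07). GALNT12, which starts O-glycans, differed by -2.47 (limma adjusted p = 3.78e-06), and C1GALT1C1, the chaperone of the core 1 enzyme, by -1.59 (limma adjusted p = 0.00134). FUT4, which makes Lewis x, differed by -2.09 (limma adjusted p = 8.56e-05), while FUT1, which makes the H antigen, differed by 1.44 (limma adjusted p = 0.00309). MGAT5 and MGAT3, which branch and bisect N-glycans, moved in opposite directions, by -1.81 and 1.81 (limma adjusted p = 0.000296 and 0.000531). MGAT3 read 37.3 in antibody-treated and 14.8 in untreated HT29, under the filter level of 47.3, so it entered the test through Colo357. FUT1, at 30.5, was also under that level in untreated HT29.

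With the antibody, 4 of the 45 genes tested passed over both lines, or 8.89%, beside 10.3% of all probe sets, so these lists were called at about the rate of all probe sets. NEU1, a lysosomal sialidase, read 2256 against 472.3 in HT29 and 1050 against 411.4 in Colo357, antibody first, and was higher by 1.78 ± 0.35 (SE; limma adjusted p = 0.00281). FUT1, at 68.8 against 30.5 and 242.1 against 82.9, was higher by 1.20 ± 0.34 (SE; limma adjusted p = 0.0279). GMDS differed with the antibody by -2.13 ± 0.37 (SE; limma adjusted p = 0.00124) and GALNT7, another starter of O-glycans, by -1.46 ± 0.35 (SE; limma adjusted p = 0.00965). All of these calls were lost without the filter, where 0 probe sets passed. In both comparisons of the clones, 0 of these genes passed the test. The largest difference among them was 2.19 for GALNT10 against uncloned HT29 (limma adjusted p = 0.0714) and -2.32 for GALNT3 in the CD24 shRNA clones against their controls (limma adjusted p = 0.236).

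The genes whose pattern over the 8 arrays was most like that of the 3 most variable enzymes were found by Pearson's r of log2(intensity + 10) over 6781 genes, as a description. The 8 points share 2 lines and 1 parent, so a single difference between lines or clones can set the value. For ST6GALNAC2 the nearest were WDR25, NME4 and PDE4A, with r of 0.995, 0.981 and 0.976. For ST6GAL1 they were VSNL1, GDF11 and RBMS2, with 0.974, 0.959 and 0.942. For GCNT3 they were AQP5, a water channel, RBFA and NR2F6, with 0.980, 0.970 and 0.970. AQP5 read 4.1 and 1.8 in antibody-treated and untreated Colo357, against 122.8 to 349.9 on the 6 arrays of HT29 origin.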

How the data were processed

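The authors deposited linear MAS5 intensities, 1 column an array, per the submitters' processing notes. The version and settings were not given in the sources used here, and no detection calls were used. The mean after trimming 2% was 250.1 on each of the 8 arrays, so they were used as deposited. Probe sets were named from the platform annotation: 19064 had 1 symbol, 1043 several and 2108 none, and several-symbol probe sets named no gene. Values were tested as log2(intensity + 10) with limma 3.58.1 in R 4.3.3 (lmFit, eBayes, two-sided), on the 11107 of 22215 probe sets above the median, with Benjamini-Hochberg adjustment. A comparison with 1 array on either side has no test, and 2-fold is then the rule. Fold changes on this scale understate the change of dim probe sets. No level of 1 probe set was set against that of another as an amount. The number of arrays limits the precision. The alternatives were another added constant, no filter, quantile normalization, 1 probe set a gene, other blocks or arrays, and leaving out arrays. Named genes were CD24, every member probe set and, in the other lists, those with calls (by smallest p) or else with the largest difference. The members and lists were chosen with earlier results of these data known.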

Additional observations from a re-analysis of the deposited data

Results flagged for a closer look

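Antibody-treated minus untreated cells gave opposite directions in HT29 and Colo357 for 2 enzymes, each on its brightest probe set. There was 1 array a group, so the difference was not tested. ST6GAL1 had a log2 difference of 0.85 in HT29 and -1.67 in Colo357, which are 2.52 apart. Its intensities were 17.9 with the antibody against 5.5 without in HT29, both dim, and 70.5 against 246.3 in Colo357. Of the 2 dimmer ST6GAL1 probe sets, below the filter, the first had the same signs with smaller differences, and the second was above 0 in both lines. These 2 probe sets had 0.06 and 0.08 in HT29 and -0.47 and 0.57 in Colo357, in the same order. FUT3 had 0.83 in HT29 and -0.52 in Colo357, which are 1.36 apart, with 48.3 with the antibody against 22.7 without in HT29 and 253.3 against 368.7 in Colo357. On its second probe set FUT3 differed by 0.09 in both lines.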

How the results depend on the processing

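The labels give the groups no shared replicate numbers. The only pairing was by cell line, the block of the antibody comparison, and without it 0 probe sets passed. In the CD24 shRNA comparison, where 0 probe sets were called, adding 50 gave 3 calls, leaving out 1 array gave 0 to 1051 (1051 without 2-vector clone 2, 22 without the GFP clone), and members stayed at 0 in all of these. The antibody comparison gave 1142 calls, against 521 with 50 added, 0 without a filter, 1 after quantile normalization, 241 with 1 probe set a gene and 0 with all 8 arrays in the fit. The lines gave 2564 calls, against 1319 with 1 probe set a gene and 757 with all 8 arrays. The 4 clones against uncloned HT29 gave 228, and 11 to 405 with 1 array left out; their 2 member calls became 1 with 50 added, 1 without a filter, and 0 to 2 with 1 array left out. For the GFP clone 2235 probe sets passed 2-fold, 4223 without a filter, and its 1 member became 2 with 1 or with 50 added, 7 without a filter and 3 after quantile normalization. For the antibody in HT29, 1366 passed, 701 with 50 added and 2833 without a filter, and 1 member became 0 and 2 in these. In Colo357, 2605 passed, 4370 without a filter, and 1 member became 2 with 1 added and 2 after quantile normalization. A member count printed without the count of all probe sets at that setting is a description and was not compared with it. For 2 vectors against 1, 1007 passed, 501 with 50 added, 2105 without a filter, and 1169 to 2390 with 1 array left out. Quantile normalization moved the median of all probe sets in the CD24 shRNA comparison by over 0.1, to 0.12 from -0.05, and that of the GFP clone to -0.05 from 0.10. It moved the share higher among 2-fold differences to 41.2% from 24.4% in the CD24 shRNA comparison, to 52.8% from 68.6% for the GFP clone and to 49.7% from 35.8% for the antibody in HT29. Signs turned only for uncalled members. In the CD24 shRNA comparison, ST3GAL1 became 0.24 and GCNT3 -0.15 after quantile normalization, and ST3GAL5 became 0.0144 with antibody-treated HT29 as a further control. With 1 array left out there, ST3GAL1 ran between -0.23 and 0.27 (above 0 without 2-vector clone 2 or the GFP clone), GCNT3 between -0.38 and 0.33 (below 0 without the 1-vector clone or the GFP clone), FUT2 between -0.19 and 0.51 (below 0 without the same arrays), ST6GALNAC2 between -0.10 and 3.39 (lowest without untreated HT29) and ST3GAL5 between -1.90 and 1.23 (highest without the GFP clone). With the antibody FUT3 became -0.015 with 50 added and FUT2 0.13 after quantile normalization. Against uncloned HT29 with 1 array left out, ST3GAL4 ran between -0.18 (without the 1-vector clone) and 0.58, GCNT3 between -0.45 and 0.0189 (without 2-vector clone 2) and ST3GAL1 between -0.95 and 0.20 (without antibody-treated HT29). The cause of these moves was not tested. Signal limits ST6GAL1, ST6GALNAC2 and FUT8 in HT29, where intensities were at most 17.9 and detection calls were not used here.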
